A study of Mus musculus with 16 samples.

Results

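The retinoblastoma (pocket) protein genes and the E2F transcription factor genes were followed across 4 genotypes of mouse mammary organoids. The genes were taken by symbol from the deposited count table: the 3 pocket protein genes Rb1, Rbl1 and Rbl2, the E2F genes E2f1, E2f2, E2f3, E2f4, E2f7 and E2f8, and Lpar6, which lies within the Rb1 gene. These are 10 of the 55487 gene identifiers in the table, and all 10 were among the 24252 genes that passed the filter on low counts.

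Pocket proteins bind E2F factors and hold their target genes off until cyclin D-CDK4/6 and cyclin E-CDK2 kinases phosphorylate them in G1. E2f1, E2f2 and E2f3 encode activators of S-phase genes, E2f4 encodes a factor that mainly represses with the pocket proteins in resting cells, and E2f7 and E2f8 encode atypical repressors whose genes are themselves E2F targets. With p130 (Rbl2) or p107 (Rbl1), E2F4 and the MuvB proteins form the DREAM complex, which keeps G1/S and G2/M genes low outside the cell cycle. RB1 loss is known from breast cancers that resist CDK4/6 inhibitors.

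RNA was sequenced from 16 samples of mammary organoids, 3-dimensional cultures of cells taken from the gland. The genotypes were WT (n = 3), PIK3CA mutation (n = 4), HER2 mutation (n = 4), and HER2 and PIK3CA mutation together (n = 5, called the double mutant here). The title of the series gives the changes as HER2 V777L and PIK3CA H1047R, in the receptor tyrosine kinase HER2 (mouse gene Erbb2) and in a catalytic subunit of phosphoinositide 3-kinase, and places the question in cyclin D1-CDK4/6 activity and drug resistance. All were cultured alike, in a medium that held epidermal growth factor, Noggin and Rspo1. The WT cultures were started from normal breast and those of the 3 mutant genotypes from breast tumors. Genotype and source therefore cannot be told apart in any comparison with WT. The labels used here do not give the promoter or Cre that drives the mutant alleles, nor whether the samples of a genotype came from separate mice, so p-values measure the spread between these samples, which may be technical.

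Total counts ranged from 45545182 to 64168308 per sample, so the members had between 25 (E2f7) and 34665 (Rb1) counts in a sample. Levels are given as CPM, counts divided by a library size that was scaled with TMM factors. All samples held mammary epithelial markers: the summed CPM of 9 luminal genes was 1978 to 2321 in WT, 3023 to 3519 in PIK3CA, 1957 to 2656 in HER2 and 2522 to 4390 in double mutants. The mean log2 CPM of 7 basal or myoepithelial genes was 5.38 to 6.44 in WT, 5.63 to 6.62 in PIK3CA, 3.92 to 5.90 in HER2 and 5.30 to 6.24 in double mutants. The highest HER2 mean, 5.90 in replicate 1, lay within the WT range, and those of HER2 replicates 2, 3 and 4 lay below it. Krt5, a basal keratin gene, was at 14.1 to 52.0 CPM in HER2 mutants, below all other samples, which held 69.0 to 412 CPM. Of the other basal genes, Myh11 was lower than in WT in every PIK3CA, HER2 and double mutant sample. Its levels in HER2 and double mutants overlapped. Krt14, Krt17, Trp63, Acta2 and Oxtr overlapped between HER2 mutants and WT. WT also held more summed RNA of macrophage or myeloid genes than any mutant sample. The summed CPM of 8 macrophage or myeloid genes was 1052 to 3616 in WT, 610 to 773 in PIK3CA, 272 to 451 in HER2 and 239 to 424 in double mutants. Most of what was left in PIK3CA and double mutants was Cd14, at 573 to 752 and 183 to 403 CPM against 492 to 600 in WT. In HER2 mutants Cd14 was at 123 to 372 CPM and was not most of the sum in every sample. The mean log2 CPM of these 8 genes, which weights them equally, was 5.15 to 7.11 in WT, -0.41 to 1.38 in PIK3CA, -0.81 to 3.69 in HER2 and -0.67 to -0.19 in double mutants. Lyz2, the lysozyme gene of myeloid cells, was at 404 to 2649 CPM in WT and reached at most 7.84 CPM in PIK3CA, 142 in HER2 and 0.337 in double mutants. The summed CPM of 8 fibroblast genes was 373 to 2001 in WT, 113 to 540 in PIK3CA, 42.4 to 642 in HER2 and 51.2 to 183 in double mutants. PIK3CA and HER2 mutants thus overlapped WT in this sum. Pdgfra and Pdgfrb were lower in every mutant sample than in WT, while Dcn and Fbln1 overlapped between WT and each mutant genotype. Adgre1, which defines macrophages, was at 0 in 1 HER2 and 2 double mutant samples and at 8.63 to 43.7 CPM in WT. Endothelial genes summed to at most 4.82 CPM and lymphocyte genes to at most 2.33 CPM in any sample. The part of these cells, basal cells included, in the differences described below was not tested. In bulk RNA, fewer cells of a type and less RNA per cell cannot be told apart.

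HER2 replicates 1 and 4 stood apart, which was found after their values were seen. For 13398 genes with a mean log2 CPM of at least 1, the median log2 difference from the WT mean was taken for each of 19 autosomes in each sample. Of the 304 medians, 19 were past 0.2 in either direction, 17 of them in HER2 replicate 1 and 2 in HER2 replicate 4 (-0.675 on chromosome 4 and 0.402 on chromosome 6). No median of a WT, PIK3CA or double mutant sample was past 0.2. In HER2 replicate 1 the chromosome 2 genes, which include E2f1 and Rbl1, had a median of 0.234, the chromosome 7 genes, which include E2f8, 0.286, and the chromosome 14 genes, which include Rb1 and Lpar6, -0.326. In the same sample chromosome 8, with Rbl2 and E2f4, had -0.217, chromosome 10, with E2f7, -0.246, and chromosome 13, with E2f3, -0.248. Chromosome 4, lowered in HER2 replicate 4, includes E2f2. Copy number was not measured. The HER2 results of the members are therefore given with and without these 2 samples, and those of other genes by which calls were kept.

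**Figure D1:**
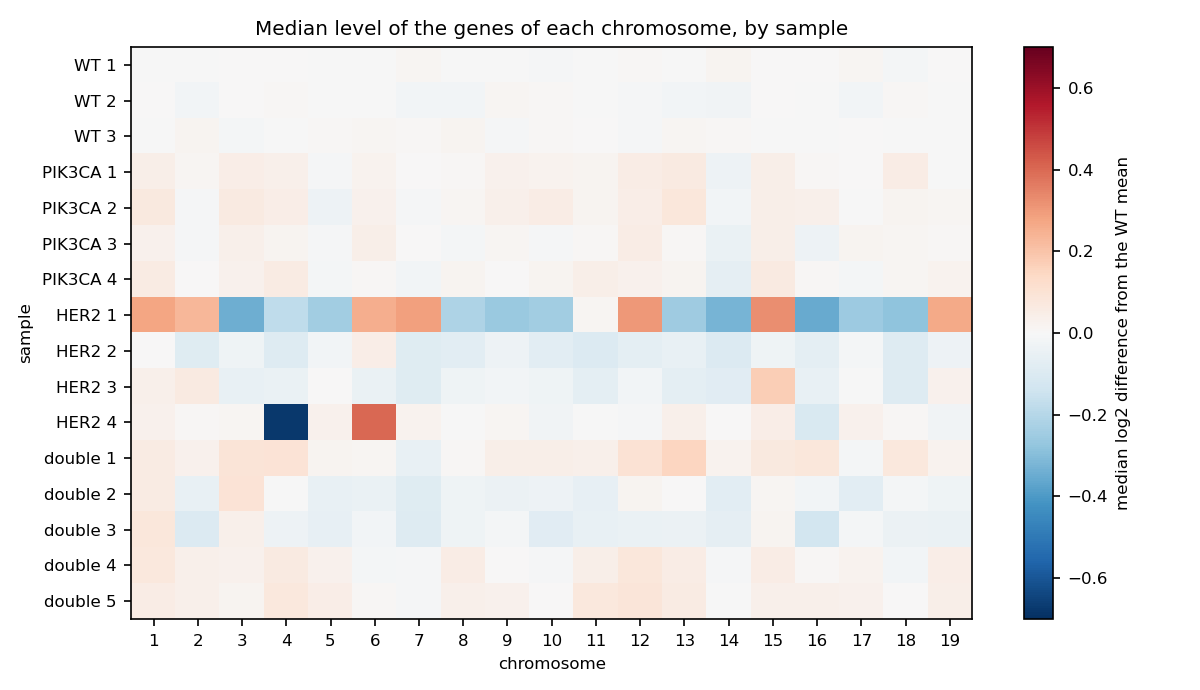
Median log2 difference from the WT mean of the genes of each chromosome (columns, chromosomes 1 to 19) in each sample (rows); red is higher and blue lower than WT. HER2 replicate 1 departs on most chromosomes, and HER2 replicate 4 on chromosome 4 (-0.675) and chromosome 6 (0.402), while the WT, PIK3CA and double mutant samples stay within 0.2.

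Promoter sequence is shown for the members where it bears on how they are controlled: E2F words (TTTCCCGC, TTTCGCGC, TTTGCCGC or TTTGGCGC) and words of the cell cycle homology region (CHR) through which MuvB binds DNA (TTTGAA or TTCGAA), searched on both strands from 250 bases before to 50 after each start in RefSeq's GRCm38.p6 annotation. No CHR word overlapped an E2F word in the windows of the members. An E2F word stood in 2.27% and a CHR word in 19.2% of the 32851 promoters of that annotation. These shares count each window, while the counts for members and gene lists take a gene with a word in any of its windows. A gene with several windows has more chances of a match, so the shares are not directly comparable. Of the 8 members with a promoter listed, 4 held an E2F word (Rbl1, E2f2, E2f3 and E2f7) and 4 held a CHR word (Rbl2, E2f2, E2f3 and E2f8). The CHR word of E2f2 stood only in its second window (chr4:136180532-136180831), which lies inside the annotated gene. A second window of E2f3 held neither word. No window of Rb1 or E2f4 was listed. The listed window of E2f1 lies inside the annotated gene and held neither word. The windows of Rbl2, the pocket protein gene of DREAM, of E2f3, which held both kinds of word, of E2f8 and of Lpar6, whose start lies inside Rb1, are printed with the matched words in capitals, read on the strand of the gene, so that a word on the other strand appears as its reverse complement (TTCAAA for TTTGAA, GCGGGAAA for TTTCCCGC). A match is a description of these letters and not a site of binding.
Rbl2, chr8:91069807-91070106, plus strand: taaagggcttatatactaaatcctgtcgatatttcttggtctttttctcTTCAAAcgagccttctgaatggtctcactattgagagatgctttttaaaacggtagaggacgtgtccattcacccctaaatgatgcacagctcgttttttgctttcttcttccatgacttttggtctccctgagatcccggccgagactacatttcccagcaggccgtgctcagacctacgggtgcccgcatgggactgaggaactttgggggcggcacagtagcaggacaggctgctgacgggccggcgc
E2f3, chr13:29986014-29986313, minus strand: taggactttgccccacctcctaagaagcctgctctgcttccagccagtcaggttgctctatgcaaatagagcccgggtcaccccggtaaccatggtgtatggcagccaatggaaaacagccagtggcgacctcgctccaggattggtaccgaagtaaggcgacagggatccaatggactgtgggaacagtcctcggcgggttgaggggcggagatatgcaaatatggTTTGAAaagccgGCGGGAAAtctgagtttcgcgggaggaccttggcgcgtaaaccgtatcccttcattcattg
E2f8, chr7:48881547-48881846, minus strand: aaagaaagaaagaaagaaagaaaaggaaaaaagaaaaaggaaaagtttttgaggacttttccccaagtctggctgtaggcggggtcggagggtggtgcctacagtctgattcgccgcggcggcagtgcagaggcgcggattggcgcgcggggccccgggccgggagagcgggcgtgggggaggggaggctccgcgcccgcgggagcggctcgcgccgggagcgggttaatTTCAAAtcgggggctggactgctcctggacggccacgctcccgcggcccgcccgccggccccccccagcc
Lpar6, chr14:73237641-73237940, plus strand: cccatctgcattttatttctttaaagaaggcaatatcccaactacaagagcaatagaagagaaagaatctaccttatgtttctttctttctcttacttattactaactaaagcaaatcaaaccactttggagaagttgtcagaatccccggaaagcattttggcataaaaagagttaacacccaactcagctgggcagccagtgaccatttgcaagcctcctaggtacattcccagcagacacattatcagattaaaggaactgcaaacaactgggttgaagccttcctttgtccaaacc
In E2f3 the CHR word began 23 bases and the E2F word 11 bases before the start, and in E2f8 the CHR word began 20 bases before it. In Rbl2 the CHR word began 201 bases before the start. The Lpar6 window held neither word.

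Rb1, Rbl2 and Lpar6 were lower in mutants that carry HER2, Lpar6 also in PIK3CA mutants, and E2f1 was higher in HER2 mutants. Genes were called in edgeR's quasi-likelihood test where the p adjusted over all tested genes was under 0.05, which is meant by "passed" below, and "rose" and "fell" are used of called genes alone. Of the 10 members, 1 passed in PIK3CA mutants against WT (Lpar6, lower), where 4.52% of all tested genes passed, 1.49% higher and 3.03% lower. In HER2 mutants against WT 4 members passed (Rb1, Rbl2 and Lpar6 lower, E2f1 higher), where 10.4% of all genes did (4.75% higher and 5.63% lower), and in double mutants against WT 3 passed (Rb1, Rbl2 and Lpar6 lower), where 11.8% of all genes did (5.03% higher and 6.72% lower). These 3 comparisons share the same WT samples. The median log2 fold change of the members was -0.09, -0.02 and -0.05, against medians of -0.03, 0.03 and 0.01 over all tested genes. Among the mutants, 1 member passed in double against HER2 mutants (Rb1, higher; 2.5% of all genes) and 2 in HER2 against PIK3CA mutants (Rb1 and Lpar6, lower; 4.41% of all genes). In double against PIK3CA mutants 0 members passed with edgeR, where 0.672% of all genes passed; 1 member, Rbl2, had an unadjusted p under 0.05, and DESeq2 called 1 member. For the interaction, which sets the double mutant change against the sum of both single-mutant changes on the log2 scale, 2 members passed, Rb1 and Lpar6, where 1.06% of all genes did. Samples did not overlap with WT for 3 members in PIK3CA mutants (E2f3 above; Rb1 and Lpar6 below), where 13.8% of all genes were wholly above and 15.7% wholly below. In HER2 mutants 5 members were separate (E2f1 and E2f3 above; Rb1, Rbl2 and Lpar6 below), where 9.81% and 12.4% of all genes were, and in double mutants 6 were (E2f1, E2f3 and E2f8 above; Rb1, Rbl2 and Lpar6 below), where 9.68% and 13.4% were. Among the mutants, Rb1 was wholly higher in double than in HER2 samples (2.21% of all genes were), Rbl2 was wholly lower in double than in PIK3CA samples (4.5%), and Rb1, Rbl2 and Lpar6 were wholly lower in HER2 than in PIK3CA samples (6.87%).

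**Figure D2:**
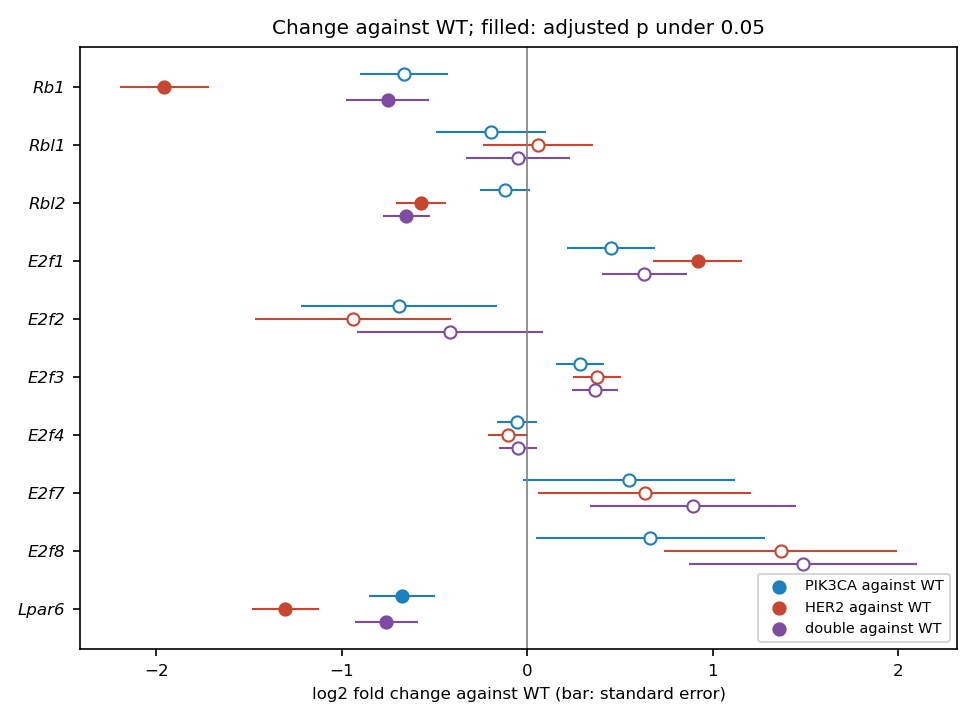
Log2 fold change of each gene against WT in PIK3CA (blue), HER2 (red) and double mutants (purple), with bars for the standard error and filled points where the edgeR adjusted p was under 0.05. Rb1 in HER2 mutants, at -1.96, is farthest from 0 in relation to its error, and E2f4 lies between -0.10 and -0.05 in all 3 comparisons.

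Of the pocket protein genes, Rb1 had the largest fold changes against WT, and it was lowest in HER2 mutants. Rb1 (ENSMUSG00000022105) lies on the minus strand of chromosome 14 at 73183673 to 73325822 (GRCm38). Its product pRB restrains E2F1, E2F2 and E2F3. In WT, Rb1 was at 603, 544 and 578 CPM. In PIK3CA mutants it was at 368, 297, 430 and 354 CPM, and in double mutants at 277, 297, 391, 404 and 338 CPM. HER2 mutants held 131, 132, 234 and 94.6 CPM. Every mutant sample was below every WT sample, every HER2 sample was below every PIK3CA and double mutant sample, and the PIK3CA and double mutant samples overlapped. In means, Rb1 was at 575 ± 29.5 CPM in WT (SD, n = 3), 362 ± 54.6 in PIK3CA (SD, n = 4), 148 ± 60.0 in HER2 (SD, n = 4) and, for double mutants, 341 ± 55.9 (SD, n = 5).

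Rb1 was 3.88-fold lower in HER2 mutants than in WT (log2 fold change -1.96, SE 0.239, edgeR adjusted p 0.000375). In double mutants Rb1 fell by 0.75 on the log2 scale (SE 0.224, edgeR adjusted p 0.0390). The PIK3CA value was close to that in size, -0.67, but did not pass (SE 0.236, edgeR adjusted p 0.141), except in a fit of these 2 genotypes alone (edgeR adjusted p 0.00826). Among the mutants, Rb1 was 2.45-fold lower in HER2 than in PIK3CA mutants (log2 -1.29, SE 0.224, edgeR adjusted p 0.00586). In double against HER2 mutants Rb1 rose by 1.21 on the log2 scale (SE 0.215, edgeR adjusted p 0.00961), while double and PIK3CA mutants differed by -0.09 (SE 0.209, edgeR adjusted p 0.921). In the order WT, PIK3CA, double, HER2, the step from double to HER2 passed the test, and the steps from WT to PIK3CA and from PIK3CA to double did not.

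The interaction was 1.87 for Rb1 (SE 0.318, edgeR adjusted p 0.0120). The double mutants thus held more Rb1 than the sum of the single-mutant changes gives. The WT samples enter this contrast, and with them their source. Without HER2 replicates 1 and 4, the Rb1 change in HER2 against WT was -1.65 (edgeR adjusted p 0.00203), that in HER2 against PIK3CA mutants was -0.99 (edgeR adjusted p 0.0249), that in double against HER2 mutants was 0.90 (edgeR adjusted p 0.0450), and the interaction was 1.56 (edgeR adjusted p 0.0185). The call in double mutants against WT was lost in 6 of 8 fits that left out a sample: without any of WT replicates 1, 2 and 3 or double mutant replicates 1, 2 and 5, with log2 values of -0.82 to -0.69 over the 8 fits.

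**Figure D3:**
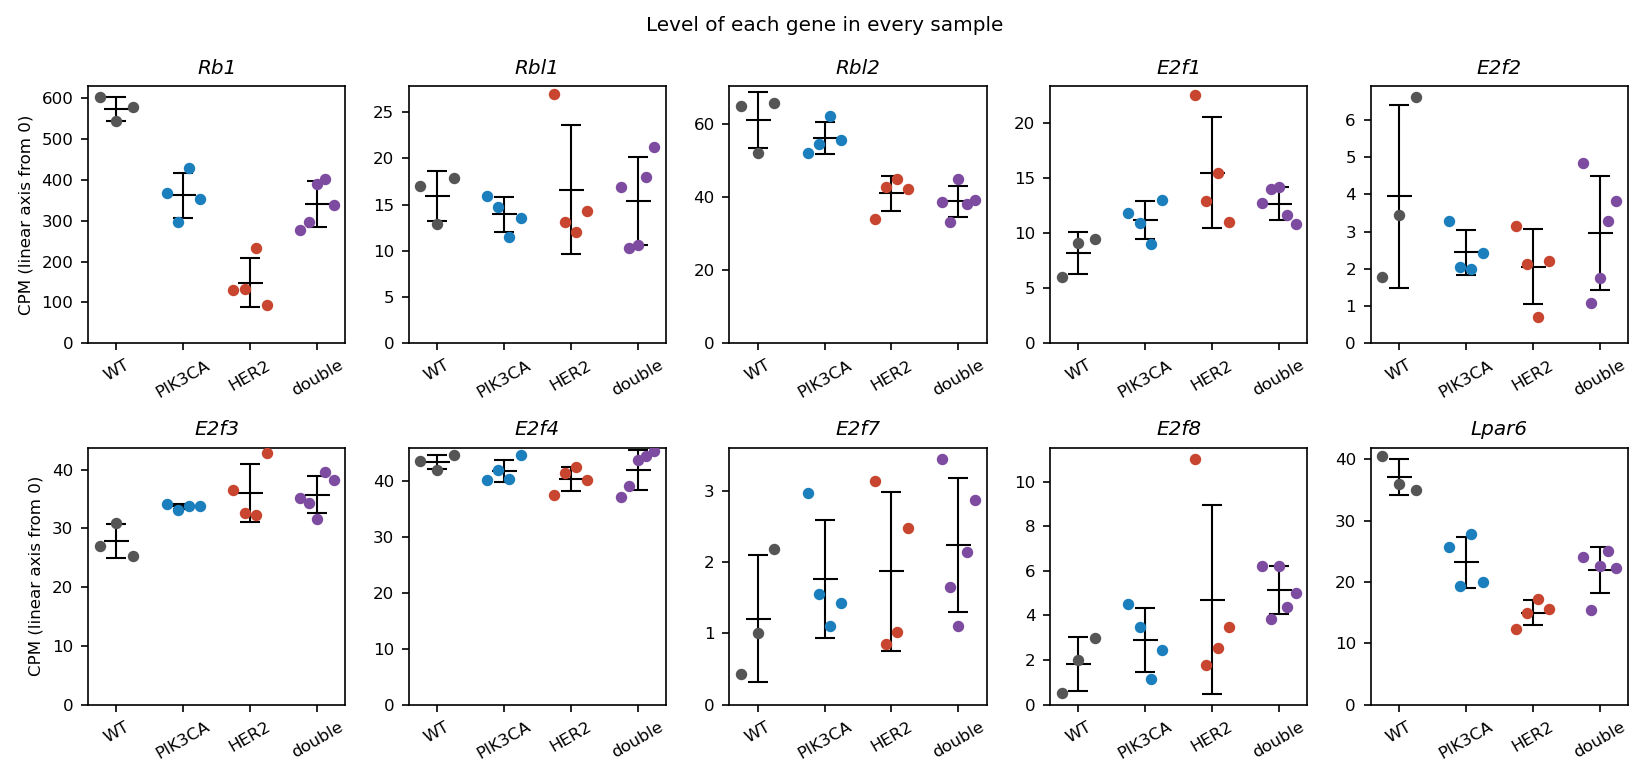
Level in CPM (linear axes from 0) of each gene in every sample, by genotype; each point is a sample, and bars show the mean and SD of the genotype. The HER2 samples of Rb1, at 94.6 to 234 CPM, lie below all others, Lpar6 is lower in every mutant sample than in WT, and E2f4 stays between 37.1 and 45.4 CPM.

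Rbl2 (ENSMUSG00000031666, chromosome 8, 91070057 to 91123844, plus strand) encodes p130, the pocket protein most abundant in resting cells. It was lower in the genotypes that carry the HER2 mutation. Rbl2 was at 65.1, 52.3 and 66.0 CPM in WT and at 52.2, 54.7, 62.3 and 55.7 CPM in PIK3CA mutants, which overlapped. HER2 mutants were at 34.1, 42.9, 45.1 and 42.3 CPM and double mutants at 38.8, 33.2, 45.1, 38.0 and 39.3 CPM. All 9 samples with the HER2 mutation were below all 7 without it. HER2 replicate 1, the lowest HER2 sample, had a lowered chromosome 8 median (-0.217), and the part of that shift was not tested. Against WT, Rbl2 fell in HER2 mutants by 0.57 on the log2 scale (SE 0.135, edgeR adjusted p 0.0151). The fall was 0.65 in double mutants (SE 0.128, edgeR adjusted p 0.00365). In PIK3CA mutants the value was -0.12 (SE 0.135, edgeR adjusted p 0.726).

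Against PIK3CA mutants, which share the tumor source, the Rbl2 value of double mutants was -0.53 (SE 0.118, edgeR adjusted p 0.0527) and that of HER2 mutants -0.45 (SE 0.126, edgeR adjusted p 0.0522). Neither passed the threshold, although the samples did not overlap; with DESeq2 both passed (adjusted p 0.00495 and 0.0179). The value of HER2 against PIK3CA mutants was -0.36 without HER2 replicates 1 and 4 (edgeR adjusted p 0.170). The HER2 call against WT was lost without HER2 replicates 1 and 4 (-0.47, edgeR adjusted p 0.0574), in a fit of HER2 and WT samples alone and without WT replicate 1 or WT replicate 3, and the double mutant call was kept in all 8 fits that left out a sample. The interaction for Rbl2 was 0.04 (SE 0.180, edgeR adjusted p 0.954). Of its exon bases, 9.17% are shared with Aktip on the opposite strand and 11.8% with the predicted gene Gm45464, and the counts may hold reads of these.

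Rbl1 (ENSMUSG00000027641, chromosome 2, 157145893 to 157204534, minus strand) encodes p107, the pocket protein whose gene is an E2F target, and its promoter window held an E2F word. It was at 17.1, 12.9 and 17.9 CPM in WT, 15.9, 14.8, 11.5 and 13.6 CPM in PIK3CA, 27.0, 13.1, 12.1 and 14.3 CPM in HER2 and 16.9, 10.3, 10.6, 17.9 and 21.2 CPM in double mutants. HER2 replicate 1 was the highest of all samples, and the genotypes overlapped. Log2 fold changes against WT were -0.20, 0.06 and -0.05 in PIK3CA, HER2 and double mutants, with SE of 0.282 to 0.295 and edgeR adjusted p of 0.804 to 0.931. The HER2 value was -0.34 without HER2 replicates 1 and 4.

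Set per kilobase of exon, Rb1 supplied most of the pocket protein RNA in every sample. Its share of the summed CPM per kilobase of the 3 genes was 89.1% to 90.9% in WT, 83.6% to 87.6% in PIK3CA, 66.3% to 83.0% in HER2 and 85.3% to 89.4% in double mutants. In HER2 mutants the share of Rbl2 was 12.7% to 23.6% and that of Rbl1 4.29% to 14.6%, against 6.95% to 8.09% and 2.16% to 2.77% in WT. The Rbl2 and Rbl1 shares were larger in HER2 mutants while the CPM of Rbl2 was lower and that of Rbl1 overlapped.

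Of the activator E2F genes, E2f1 rose in HER2 mutants, and E2f2 and E2f3 passed in no comparison with edgeR and TMM factors on all samples. E2f1 (ENSMUSG00000027490, chromosome 2, 154559407 to 154569892, minus strand) encodes an activator that pRB restrains. It was at 6.03, 9.07 and 9.51 CPM in WT, 11.9, 10.9, 9.01 and 13.0 CPM in PIK3CA, 22.6, 12.9, 15.5 and 11.03 CPM in HER2 and 12.8, 13.99, 14.2, 11.7 and 10.8 CPM in double mutants. All HER2 and double mutant samples were above all WT samples, and PIK3CA replicate 3 lay within the WT range. E2f1 rose by 0.92 on the log2 scale in HER2 mutants (SE 0.240, edgeR adjusted p 0.0252). The double mutant value of 0.63 (SE 0.229, edgeR adjusted p 0.0878) and the PIK3CA value of 0.45 (SE 0.237, edgeR adjusted p 0.360) did not pass.

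HER2 replicate 1, whose chromosome 2 median was raised, held the highest E2f1 level. Without it the HER2 value was not past the threshold, nor without WT replicate 1 or WT replicate 3, nor in a fit of HER2 and WT samples alone or with the replicate block, and over the 7 fits that left out a sample it was 0.68 to 1.05. Without HER2 replicates 1 and 4 together the value was 0.79 (edgeR adjusted p 0.0378). The ratio of E2f1 to Rb1 in CPM per kilobase of exon was 0.0274 ± 0.00721 in WT (SD, n = 3), 0.0604 ± 0.0142 in PIK3CA (SD, n = 4), 0.216 ± 0.0846 in HER2 (SD, n = 4) and, for double mutants, 0.0727 ± 0.0157 (SD, n = 5). The lowest HER2 ratio, 0.126, was above the highest of any other sample, 0.0899.

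E2f3 (ENSMUSG00000016477, chromosome 13, 29906575 to 29986063, minus strand) encodes an activator expressed also in resting cells in its shorter form, and gene counts do not separate the forms. It was at 27.1, 31.0 and 25.4 CPM in WT and at 34.2, 33.2, 33.9 and 33.9 CPM in PIK3CA mutants. HER2 mutants were at 36.5, 32.6, 32.4 and 42.9 CPM and double mutants at 35.1, 34.4, 31.5, 39.6 and 38.2 CPM. The lowest of the 13 mutant samples, at 31.5 CPM, was just above the highest WT sample. The log2 fold changes were 0.28 in PIK3CA, 0.38 in HER2 and 0.36 in double mutants (SE 0.124 to 0.129), and none passed (edgeR adjusted p 0.278, 0.0760 and 0.0699). With DESeq2 E2f3 passed in HER2 (adjusted p 0.0393) and double mutants (adjusted p 0.0337), and with edgeR it passed in HER2 mutants with upper-quartile factors (adjusted p 0.0391) and in double mutants without replicate 3 (adjusted p 0.0483) or without replicates 2 and 3 (adjusted p 0.0479). The HER2 value was 0.22 without HER2 replicates 1 and 4 (edgeR adjusted p 0.285).

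E2f2 (ENSMUSG00000018983, chromosome 4, 136172394 to 136196057, plus strand), the third activator gene, was low and scattered. Its levels were 1.78, 3.44 and 6.62 CPM in WT, 3.29, 2.05, 1.99 and 2.43 CPM in PIK3CA, 3.15, 2.14, 0.712 and 2.21 CPM in HER2 and 4.86, 1.09, 1.75, 3.29 and 3.81 CPM in double mutants. The WT samples spanned most of the range of the mutants. Log2 fold changes were -0.69, -0.94 and -0.42 with SE of 0.501 to 0.528, and none passed (edgeR adjusted p 0.279 to 0.642). The HER2 value of E2f2 was -1.465 without HER2 replicates 1 and 4.

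E2f4 (ENSMUSG00000014859, chromosome 8, 105297663 to 105305370, plus strand), the E2F of the DREAM complex, was the most even member. It was at 43.7, 42.0 and 44.6 CPM in WT, 40.3, 42.0, 40.3 and 44.6 CPM in PIK3CA, 37.5, 41.4, 42.5 and 40.2 CPM in HER2 and 37.1, 39.1, 43.7, 44.5 and 45.4 CPM in double mutants. The genotypes overlapped. Against WT the log2 fold changes were -0.06, -0.10 and -0.05, with SE of 0.102 to 0.107 and edgeR adjusted p of 0.580 to 0.855, and the HER2 value was -0.051 without HER2 replicates 1 and 4. Per kilobase of exon, E2f4 was the most abundant of the 6 E2F genes followed, with 63.7% to 70.6% of their summed CPM per kilobase in WT, 58.0% to 62.6% in PIK3CA, 47.5% to 60.6% in HER2 and 53.7% to 59.9% in double mutants. E2f3 followed with 16.7% to 27.1% and E2f1 with 7.58% to 22.2% over all samples.

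The atypical repressor genes E2f7 and E2f8 were the least abundant E2F genes with E2f2. Both varied several-fold within WT and within HER2 mutants, while E2f8 varied less in double mutants (3.86 to 6.24 CPM). E2f8 (ENSMUSG00000046179, chromosome 7, 48866429 to 48881596, minus strand) was at 0.542, 1.98 and 2.97 CPM in WT and at 4.50, 3.49, 1.13 and 2.47 CPM in PIK3CA mutants. HER2 mutants were at 11.01, 1.79, 2.56 and 3.50 CPM and double mutants at 6.21, 3.86, 6.24, 4.38 and 4.997 CPM. The double mutant samples were all above WT, and HER2 replicate 1 held the highest level of all. Log2 fold changes for E2f8 were 0.66 in PIK3CA, 1.37 in HER2 and 1.49 in double mutants (SE 0.614 to 0.629), and none passed (edgeR adjusted p 0.656, 0.186 and 0.130). The HER2 value was 0.25 without HER2 replicates 1 and 4. Of the exon bases of E2f8, 11.2% are shared with the predicted transcript Gm2788 on the opposite strand.

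E2f7 (ENSMUSG00000020185, chromosome 10, 110745439 to 110787384, plus strand) was at 0.437, 1.00 and 2.19 CPM in WT, 2.97, 1.55, 1.11 and 1.43 CPM in PIK3CA, 3.15, 0.848, 1.02 and 2.48 CPM in HER2 and 3.46, 1.66, 1.10, 2.14 and 2.88 CPM in double mutants. All genotypes overlapped. The log2 fold changes were 0.55, 0.63 and 0.89 (SE 0.557 to 0.574, edgeR adjusted p 0.325 to 0.700). The HER2 value of E2f7 turned to -0.37 without HER2 replicates 1 and 4.

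Lpar6 encodes a G protein-coupled receptor for lysophosphatidic acid and is not part of the cell cycle machinery. It was followed because its gene (ENSMUSG00000033446, chromosome 14, 73237895 to 73243294, plus strand) lies wholly inside intron 17 of the 27-exon Rb1 transcript, on the opposite strand; that intron spans 73216780 to 73262528. Lpar6 was at 40.5, 35.9 and 34.9 CPM in WT, 25.7, 19.4, 27.8 and 19.9 CPM in PIK3CA, 12.3, 14.9, 17.2 and 15.7 CPM in HER2 and 24.03, 15.5, 22.6, 25.1 and 22.3 CPM in double mutants. Every mutant sample was below every WT sample, and double mutant replicate 2 lay within the HER2 range. Lpar6 fell in all 3 mutant genotypes against WT: by 0.68 on the log2 scale with PIK3CA (SE 0.179, edgeR adjusted p 0.0412), by 1.31 with HER2 (SE 0.179, edgeR adjusted p 0.000757) and by 0.76 with both (SE 0.169, edgeR adjusted p 0.00817).

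In HER2 against PIK3CA mutants Lpar6 fell by 0.63 (SE 0.168, edgeR adjusted p 0.0455), and in double against HER2 mutants its value was 0.55 (SE 0.160, edgeR adjusted p 0.0768), which passed with DESeq2 (adjusted p 0.0321) and without double mutant replicate 2 (edgeR adjusted p 0.0321). The interaction was 1.22 (SE 0.240, edgeR adjusted p 0.0243) and, without HER2 replicates 1 and 4, 1.13 (edgeR adjusted p 0.0448). The same fit gave -1.21 in HER2 against WT (edgeR adjusted p 0.00495), -0.53 in HER2 against PIK3CA (edgeR adjusted p 0.149) and 0.45 in double against HER2 mutants. The call in PIK3CA mutants against WT was lost in 6 of 7 fits that left out a sample, held only without PIK3CA replicate 3, and that in HER2 against PIK3CA mutants was lost in 7 of 8, held only without HER2 replicate 3. The interaction call was lost in 4 of 16, without WT replicate 1, WT replicate 3, PIK3CA replicate 2 or PIK3CA replicate 4, and the call in double mutants against WT was lost without WT replicate 1. The strand setting of the counting is not given in the sources used here, and 408 exon bases, 7.56% of those of Lpar6 and 6.78% of those of Rb1, belong to both genes in the annotation. The rest of Lpar6 lies over Rb1 intron sequence. If strand was not used in counting, reads of unspliced Rb1 RNA there would count as Lpar6. Their part in the Lpar6 values was not tested. The ratio of Lpar6 to Rb1 in CPM per kilobase of exon was 0.0672 to 0.0749 in WT, 0.0628 to 0.0779 in PIK3CA and 0.0582 to 0.0966 in double mutants, and 0.0816 to 0.184 in HER2 mutants, where Rb1 was lower by more than Lpar6 was.

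The neighbours of Rb1 on chromosome 14 were compared because a member lies inside it. Itm2b, which encodes an integral membrane protein and is the next gene beyond the start of Rb1 (73362226 to 73385289, minus strand), moved most like Rb1 of the tested genes that have an established symbol (predicted genes and Rik clones were left out): over the 16 samples, log2 CPM centred on each gene's mean differed from that of Rb1 by a root mean square of 0.243, against a median of 0.914 over the other genes. The next most alike were Prrt1 (0.342, chromosome 17), Scarb2 (0.351, chromosome 5), Egr3 (0.365, chromosome 14) and Pcdhgc3 (0.365, chromosome 18), and Lpar6 had 0.412. Itm2b was at 2551 to 2700 CPM in WT, 1790 to 2289 in PIK3CA, 664 to 1394 in HER2 and 1733 to 2190 in double mutants. HER2 samples were below all others. Against WT, Itm2b fell by 1.45 on the log2 scale in HER2 mutants (SE 0.201, edgeR adjusted p 0.000759). Its fall was 1.19 without HER2 replicates 1 and 4 (edgeR adjusted p 0.00334). It rose by 1.04 in double against HER2 mutants (edgeR adjusted p 0.00852), while the values of -0.41 in PIK3CA and -0.42 in double mutants against WT did not pass (edgeR adjusted p 0.313 and 0.170). Its interaction was 1.45 (SE 0.268, edgeR adjusted p 0.0179).

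Rcbtb2, which overlaps the end of Rb1 on 488 exon bases of the opposite strand, fell by 1.06 in HER2 (edgeR adjusted p 0.0239) and by 0.84 in double mutants (edgeR adjusted p 0.0470) and had -0.75 in PIK3CA mutants (edgeR adjusted p 0.154). In fits of each mutant genotype with WT alone, Rcbtb2 passed in PIK3CA mutants (edgeR adjusted p 0.00345) and not in the others. Farther away the values varied by gene and genotype. Fndc3a, 474 kilobases beyond the end of Rb1, had -0.49 against WT in PIK3CA (edgeR adjusted p 0.208) and 0.38 in HER2 mutants (edgeR adjusted p 0.257). Fndc3a fell by 0.63 in double mutants (edgeR adjusted p 0.0395). It was lower in double than in HER2 mutants (-1.01, edgeR adjusted p 0.00836). Without HER2 replicates 1 and 4 Fndc3a rose by 0.65 against WT in HER2 mutants (edgeR adjusted p 0.0368). Med4 and Sucla2, 184 and 200 kilobases beyond the start of Rb1, passed in none of the 3 comparisons with WT, with values of -0.35 to -0.027. For the 50 genes within 5 megabases of the middle of Rb1 other than Rb1 and Lpar6, the median log2 difference from the WT mean was -0.505 and -0.263 in HER2 replicates 1 and 4, -0.151 and -0.0923 in HER2 replicates 2 and 3, -0.194 to -0.106 in double mutants and -0.0907 to 0.00276 in PIK3CA mutants. Rb1 was at 131 and 94.6 CPM in HER2 replicates 1 and 4, at 132 and 234 CPM in HER2 replicates 2 and 3 and at 544 CPM or more in WT. The part of this shift in the Rb1 values was not tested.

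**Figure D4:**
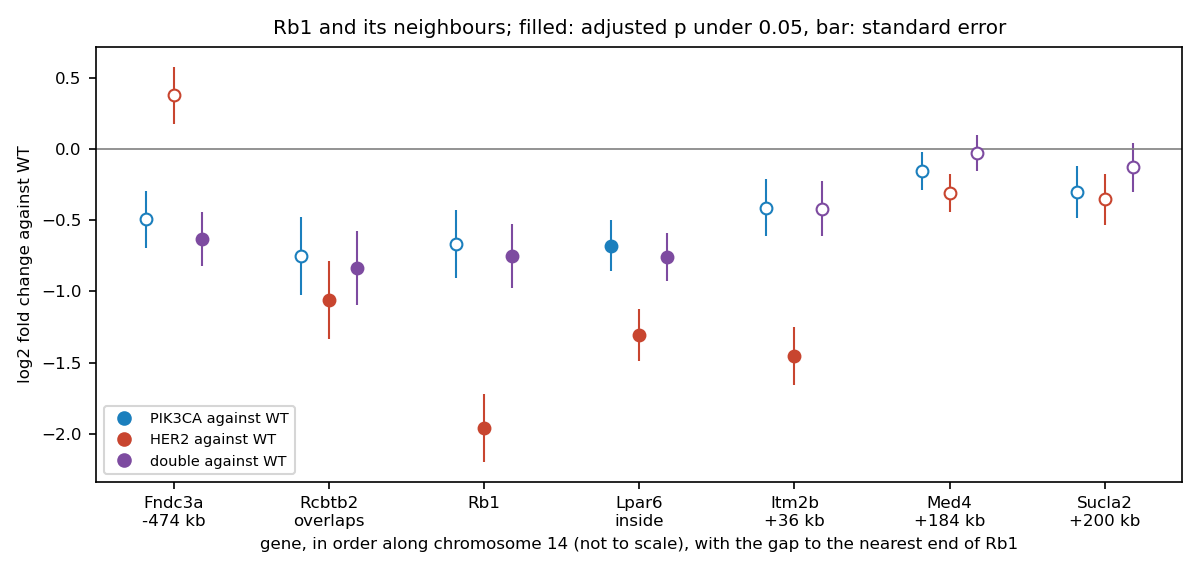
Log2 fold change against WT of Rb1, Lpar6 and tested neighbours in order along chromosome 14 (gap to the nearest end of Rb1 in kilobases under the name, axis not to scale), with standard errors and filled points where the edgeR adjusted p was under 0.05. In HER2 mutants Rcbtb2, Rb1, Lpar6 and Itm2b are at -1.06, -1.96, -1.31 and -1.45, while Fndc3a is at 0.38 and Med4 and Sucla2 are at -0.31 and -0.35.

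Measured the same way, the genes most like E2f1 were Galk1 (0.197), Tk1 (0.198), Kpnb1 (0.199), P4hb (0.1999) and Trabd (0.212), where the median over the other genes was 0.643; the first 4 lie on chromosome 11. Among the members E2f3 was closest to E2f1 (0.364). These are descriptions over 16 samples that share libraries and genotypes.

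Several of the kinases and cyclins that act on pocket proteins rose in the mutants. Of 8 genes, 2 rose in PIK3CA, 4 in HER2 and 5 in double mutants against WT, and 0 fell, where 1.49%, 4.75% and 5.03% of all tested genes rose. In fits of each mutant genotype with WT alone, 5 rose in PIK3CA, 0 in HER2 and 4 in double mutants. Their median log2 fold changes were 0.58, 0.45 and 0.64. Ccnd1, the cyclin D1 gene, was at 55.5 to 120 CPM in WT, 176 to 344 in PIK3CA, 162 to 512 in HER2 and 297 to 545 in double mutants, and rose by 1.71, 1.64 and 2.40 on the log2 scale (edgeR adjusted p 0.0256, 0.0208 and 0.00165). Ccne1, the cyclin E1 gene and itself an E2F target, rose by 2.02 in HER2 (edgeR adjusted p 0.0104) and 2.08 in double mutants (edgeR adjusted p 0.00535), with 1.12 in PIK3CA mutants (edgeR adjusted p 0.182). Ccnd3, the cyclin D3 gene, rose by 0.89 in PIK3CA, 0.69 in HER2 and 0.79 in double mutants (edgeR adjusted p 0.00254, 0.00918 and 0.00214). Cdk6, a partner of the D cyclins, rose by 1.00 in HER2 (edgeR adjusted p 0.0329) and 1.15 in double mutants (edgeR adjusted p 0.0118), with 0.76 in PIK3CA mutants (edgeR adjusted p 0.151). The HER2 count was 2, Ccnd3 and Cdk6, without HER2 replicates 1 and 4. Leaving out WT replicate 1 or WT replicate 3 gave counts of 1 in PIK3CA, 1 in HER2 and 3 in double mutants, and leaving out PIK3CA replicate 1, 2 or 4 gave 1 in PIK3CA mutants. Among the mutants 0 of the 8 passed in any pair with edgeR, with 1 to 3 at an unadjusted p under 0.05, and DESeq2 called 1 gene in double against HER2 mutants and 0 in the other pairs.

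Among the E2F targets of the G1/S transition, which prepare DNA replication, a few genes rose. Of 36 genes, 0 passed in PIK3CA, 3 rose in HER2 and 4 rose in double mutants against WT, with 2, 12 and 7 at an unadjusted p under 0.05 and median log2 fold changes of 0.09, 0.50 and 0.34. Of all tested genes 1.49%, 4.75% and 5.03% rose, and fits of each mutant genotype with WT alone called 3, 0 and 3 genes of the list. With DESeq2, 1, 5 and 4 passed. Besides Ccne1, Mcm10, a replication initiation factor, rose by 1.09 in HER2 (edgeR adjusted p 0.0260) and 1.16 in double mutants (edgeR adjusted p 0.0133), with 0.11 in PIK3CA mutants (edgeR adjusted p 0.898). Cdc25a, a phosphatase that activates CDK2, rose by 1.03 in HER2 (edgeR adjusted p 0.00383) and 0.81 in double mutants (edgeR adjusted p 0.00830), with 0.65 in PIK3CA mutants (edgeR adjusted p 0.0623). Cdt1, which loads the replicative helicase, rose by 0.99 in double mutants (edgeR adjusted p 0.0487), with 0.50 in PIK3CA and 0.70 in HER2 mutants (edgeR adjusted p 0.473 and 0.178). Without HER2 replicates 1 and 4 the HER2 median turned to -0.23 and 1 gene, Cdc25a, passed. The HER2 count was also 1 without WT replicate 1, and the double mutant count was 1 or 2 without a WT replicate. In HER2 against PIK3CA mutants Mcm10 rose by 0.98 (edgeR adjusted p 0.0447) and Gins2, a part of the helicase, fell by 0.80 (edgeR adjusted p 0.0468); without HER2 replicates 1 and 4 neither passed, and each fit that left out a PIK3CA or HER2 sample kept at most 1 of them. Of the 28 genes of this list with a promoter listed, 13 held an E2F word in any of their windows (46.4%) and 5 held a CHR word (17.9%).

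Of the G2/M genes bound by DREAM or by the activating MuvB complexes, which drive mitosis, some rose in each mutant genotype. Of 22 genes, 4 rose in PIK3CA, 10 in HER2 and 8 in double mutants against WT and 0 fell, where 1.49%, 4.75% and 5.03% of all tested genes rose, with median log2 fold changes of 1.18, 1.64 and 1.55. Bub1b, a spindle checkpoint kinase gene, rose by 1.403, 2.10 and 1.92 (edgeR adjusted p 0.0401, 0.00351 and 0.00303). Cdc25c, the phosphatase that activates CDK1, rose by 1.71, 1.97 and 2.12 (edgeR adjusted p 0.0341, 0.0115 and 0.00469), and Cenpa, the centromeric histone gene, rose by 1.44, 1.55 and 1.42 (edgeR adjusted p 0.00187, 0.00126 and 0.000834). Ube2c, a ubiquitin-conjugating enzyme of mitotic exit, rose by 2.25 in HER2 and 1.83 in double mutants (edgeR adjusted p 0.0208 and 0.0380), with 1.49 in PIK3CA mutants (edgeR adjusted p 0.158). Nek2, a centrosome kinase, rose by 2.12 in HER2 mutants (edgeR adjusted p 0.0437), with 1.19 in PIK3CA and 1.70 in double mutants (edgeR adjusted p 0.349 and 0.0819). Ccnb1, the cyclin B1 gene, rose by 1.87 in double mutants (edgeR adjusted p 0.0490), with 1.37 in PIK3CA and 1.53 in HER2 mutants (edgeR adjusted p 0.239 and 0.114).

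The HER2 count of G2/M genes rested on few samples. In HER2 replicates 1 and 4 the mean log2 CPM of the list was 4.21 and 3.20, and in replicates 2 and 3 it was 2.199 and 2.30, next to 0.83, 1.75 and 2.18 in WT. The count was 2, Bub1b and Cenpa, and the median 0.50 without HER2 replicates 1 and 4, and a fit of HER2 and WT samples alone called 1, Cenpa. It was 5 without HER2 replicate 1 alone and 2, 4 and 4 without WT replicates 1, 2 and 3. In PIK3CA mutants 1 gene passed without any one of WT replicates 1, 2 and 3 or PIK3CA replicates 1, 2 and 4, and in double mutants 5 passed without WT replicate 1 or 2 or double mutant replicate 1 or 2. Among the mutants 0 of the 22 passed in any pair with edgeR or DESeq2, with 0 to 2 at an unadjusted p under 0.05 in edgeR. In the interaction Cenpa passed, at -1.57 (SE 0.296, edgeR adjusted p 0.0201); the median was -1.33, and 0 of the 22 values were above 0. That call was lost without WT replicate 1 or PIK3CA replicate 4 and with the replicate block (edgeR adjusted p 0.0827). Of the 18 genes of this list with a promoter listed, 14 held a CHR word in any of their windows (77.8%) and 1 held an E2F word (5.56%).

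**Figure D5:**
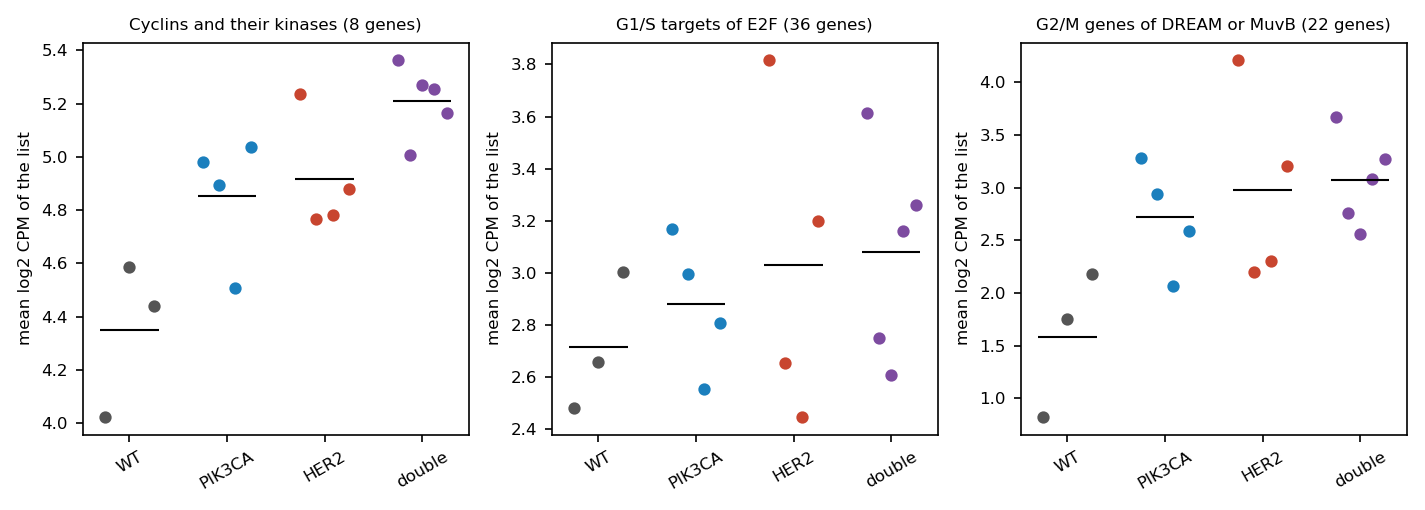
Mean log2 CPM over the genes of each list in every sample (points), with the mean of the genotype as a line: 8 cyclins and kinases, 36 G1/S targets and 22 G2/M genes. HER2 replicate 1 is the highest sample of the G1/S and G2/M lists, at 3.82 and 4.21, and HER2 replicates 2 and 3, at 2.199 and 2.30 for G2/M, lie just above the highest WT sample at 2.18.

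Of E2f5, E2f6, Tfdp1 and Tfdp2, which are further E2F genes and the genes of their DP partners, 0 passed with edgeR or DESeq2 on all samples in any comparison with WT, with 0, 2 and 1 at an unadjusted p under 0.05 in PIK3CA, HER2 and double mutants; a fit of PIK3CA and WT samples alone called 2 higher. Of 7 genes of the MuvB core and its activators, Lin9, a core subunit gene, rose by 0.66 against WT in HER2 mutants (edgeR adjusted p 0.0454), and that call was lost without HER2 replicate 1, without HER2 replicates 1 and 4, without any of the WT replicates, without the filter, with the replicate block and in a fit of HER2 and WT samples alone. In PIK3CA and double mutants 0 of the 7 passed with edgeR or DESeq2 on all samples, with 1 and 3 at an unadjusted p under 0.05 in edgeR; a fit of PIK3CA and WT samples alone called 1 higher, Lin9.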

How the data were processed

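RNA was sequenced from 16 mouse mammary organoid samples, grouped by the genotype in the labels. The authors deposited whole-number read counts per Ensembl gene, not normalized, and a table of normalized values that was not used here. Per the submitters' processing notes, bcl2fastq 2.20, STAR 2.0.4b, Subread, featureCounts 1.4.5, DESeq2 1.33.5 and build mm10 were used. The annotation and strand setting are not given in the sources used here. The table held 55774 rows, of which 287 repeats were dropped.

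Counts were tested with edgeR 4.0.16 in R 4.3.3 (filterByExpr, TMM factors, quasi-likelihood test, two-sided) in 1 model of the 4 genotypes, fitted to the 16 samples together so that they shared an estimate of the spread. The Benjamini-Hochberg adjustment covered the 24252 genes tested in each comparison, and the threshold was 0.05. The standard error (SE) is the absolute log2 fold change divided by the square root of F. CPM used TMM factors, and log2 CPM a prior count of 2. The code was tested on simulated data. Total counts of 45545182 to 64168308 set the counting precision. Alternatives were median-of-ratios and upper-quartile factors, no filter, DESeq2 1.42.0, a replicate block, fits of the compared genotypes alone, and leaving out samples.

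Exon lengths and positions are those of GENCODE M21 (GRCm38), and promoters those of RefSeq (GRCm38.p6). Named were all members, up to 3 called genes of each list with the largest changes in a comparison, the tested neighbours of Rb1 (1 is not reported here) and the 5 genes most like Rb1 and E2f1. The members and lists were chosen with earlier results of these data known. For cyclin, kinase, G1/S and G2/M genes named in a comparison with WT, the values of all 3 such comparisons are given.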

Additional observations from a re-analysis of the deposited data

Results flagged for a closer look

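Each of the 10 members was checked in the 3 genotypes of 4 or 5 samples for a sample far from the others, which made 30 checks, and chance flags about 1 in 20 such groups. One was found: Rbl1 in HER2 replicate 1, at 27.0 CPM, where the other HER2 samples held 12.1 to 14.3 CPM. The chromosome 2 genes of that sample had a median log2 difference from WT of 0.234, and the part of that shift in the Rbl1 level was not tested.

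For Rb1 and Lpar6 the change from WT to HER2 mutants differed from that from PIK3CA to double mutants by the interaction test. WT alone came from normal breast, so mutation and source cannot be told apart in this contrast. The interaction was 1.87 on the log2 scale for Rb1 (edgeR adjusted p 0.0120) and 1.22 for Lpar6 (edgeR adjusted p 0.0243). The Lpar6 call was lost in 4 of 16 fits that left out a sample and with the replicate block (edgeR adjusted p 0.08275). Rb1 changed by -1.96 in HER2 mutants against WT and by -0.09 in double against PIK3CA mutants, and Lpar6 by -1.31 and -0.08.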

How the results depend on the processing

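Rb1 in HER2 mutants against WT and against PIK3CA mutants, its interaction, Lpar6 in HER2 mutants against WT, and Rbl2 in double mutants against WT kept direction and call in every alternative run. The Rb1 call in double against HER2 mutants was lost in a fit of these genotypes alone. For double against PIK3CA mutants DESeq2 and the fit of the compared genotypes each called 1 member.

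The number of members called changed by over 1.5 times in these cases. In PIK3CA mutants against WT it was 1, but 0 without the filter and 2 with only the compared genotypes. In HER2 mutants against WT it was 4, but 2 with only these genotypes. In double against HER2 mutants it was 1, but 2 with DESeq2, 0 with only these genotypes and 2 without double mutant replicates 2 and 3. In HER2 against PIK3CA mutants it was 2, but 1 with upper-quartile factors, without the filter, with only these genotypes and without HER2 replicates 1 and 4. Leaving out 1 sample gave 0 to 1 in PIK3CA, 2 to 4 in HER2 and 1 to 4 in double mutants against WT, 1 to 2 in double against HER2, 0 to 1 in double against PIK3CA, 1 to 2 in HER2 against PIK3CA mutants and 1 to 2 for the interaction. The cause was not tested. Leaving out HER2 replicates 1 and 4, or double mutant replicates 2 and 3, was chosen after seeing the data.

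Replicate numbers were not taken as a pairing, since same-numbered samples did not correlate above 0.1 in every pair. In double against HER2 mutants the values were 0.0711 to 0.273, with a mean of 0.157 against -0.041 for samples of different number. In the other comparisons the mean of same-numbered samples was at most 0.0425, and single values reached 0.149 (double against PIK3CA mutants). With a replicate block, 0 members passed in PIK3CA mutants against WT, 1 in HER2 against PIK3CA mutants and 1 for the interaction, and the E2f1 call in HER2 mutants and the Rb1 call in double mutants against WT were lost. The block turned the uncalled values of Rbl1 in HER2 mutants against WT to -0.037, and of Rbl1 and E2f4 in double against PIK3CA mutants to -0.033 and -0.026.

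Other values that changed sign were uncalled in all fits. Without HER2 replicates 1 and 4, Rbl1 and E2f7 in HER2 against WT were -0.34 and -0.37, Rbl1 and E2f3 in double against HER2 mutants 0.29 and 0.14, Rbl1, E2f3, E2f4, E2f7 and E2f8 in HER2 against PIK3CA mutants -0.15, -0.0597, 0.0039, -0.92 and -0.42, and the interactions of Rbl2, E2f7 and E2f8 -0.0596, 0.71 and 0.58. Without double mutant replicates 2 and 3, Rbl1 and E2f2 against WT were 0.23 and 0.012, Rbl1 and E2f3 against HER2 mutants 0.17 and 0.061, Lpar6 against PIK3CA mutants 0.037 and the interaction of E2f7 0.043. Without the filter E2f3 in double against HER2 mutants was 0.0011. With upper-quartile factors E2f4 was -0.00013 in double against HER2 and 0.0016 in HER2 against PIK3CA mutants, and the Rbl2 interaction -0.019.

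Leaving out 1 sample gave -0.28 to 0.18 for Rbl1 in HER2 and -0.19 to 0.064 in double mutants, and -0.76 to 0.18 for E2f2 in double mutants, against WT. In double against HER2 mutants Rbl1 had -0.25 to 0.23, E2f3 -0.062 to 0.080 and E2f8 -0.15 to 0.97. In double against PIK3CA mutants Rb1 had -0.17 to 0.0074, E2f4 -0.024 to 0.047 and Lpar6 -0.16 to 0.019. In HER2 against PIK3CA mutants Rbl1 had -0.082 to 0.38, E2f2 -0.53 to 0.034, E2f7 -0.29 to 0.46 and E2f8 -0.15 to 1.00. For the interaction Rbl1 had -0.057 to 0.42, Rbl2 -0.040 to 0.14, E2f7 -1.04 to 0.11 and E2f8 -1.08 to 0.31.

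With DESeq2, 16 of the 22 G2/M genes rose in HER2 and 16 in double mutants against WT, where edgeR called 10 and 8; with the block edgeR called 3 and 5, and 2 in PIK3CA mutants, and the Cenpa interaction call was lost. A fit of the compared genotypes alone called 1 G2/M gene in HER2 and 13 in double mutants. E2f2, E2f7 and E2f8 had as few as 32, 25 and 31 counts in a sample, and their changes passed in no fit. The smallest change that could pass with this spread was not worked out.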
